A study of Mus musculus and Macaca nemestrina with 20 samples.

Results

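The cell cycle and DNA replication genes described here are 45 genes that carry a cell through division or hold it back. They are a list of symbols, chosen with earlier results of these data known, and the rule sets no threshold on measured values. Each symbol was looked up in the mouse tables and, in capitals, in the monkey tables. All 45 were found in both, among 29766 mouse genes and 35194 monkey genes. By role, 12 serve S phase, 4 drive the passage into S phase (G1/S drivers), 2 are inhibitors of cyclin-dependent kinases (CDK inhibitors), 21 serve mitosis and 6 serve cytokinesis.

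The tissue was the dorsal root ganglion (DRG), which holds the cell bodies of sensory neurons, and the assay was bulk RNA sequencing of total RNA from frozen ganglia. In mice, 7 libraries labelled ADAM17 KO (knockout of a membrane protease that sheds ligands and receptors from the cell surface) were set against 7 labelled ADAM17 flox, the controls. The labels divide them into batch 1, with 4 knockout and 3 flox libraries, and batch 2, with 3 knockout libraries beside 4 from flox mice. In pig-tailed monkeys (Macaca nemestrina), 3 libraries came from ganglia of skin that had received SADBE (the sensitising chemical squaric acid dibutyl ester), and 3 from ganglia of control skin, labelled vehicle. The Cre line or promoter behind the knockout, the cells it acts in, ages and the number of animals per library are not given in the sources used here.

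A dividing cell passes from G1 into S phase, where it copies its DNA, and then through mitosis and cytokinesis, where it separates the copies and itself. Cyclin-dependent kinases set this order: their cyclins rise and fall, and inhibitor proteins hold them back. Mature sensory neurons no longer divide, whereas glia, fibroblasts, macrophages and blood cell precursors can, so messages of this kind are usually scarce in a ganglion.

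Mouse libraries held 12.1 to 14.7 M estimated counts (M, the mega prefix) in batch 1 knockout, 46.9 to 52.1 M in batch 1 flox, 27.9 to 30.8 M in batch 2 knockout and 30.9 to 36.0 M in batch 2 flox. Monkey libraries held 9.02 to 22.4 M for SADBE and 13.7 to 27.1 M for vehicle. Adam17 counts, summed over all its exons, differed by 0.029 ± 0.18 on the log2 scale (SE, adjusted p = 0.930), with 16.1 to 34.6 CPM in knockout and 17.6 to 33.3 CPM in flox libraries. A sum over the whole gene does not check a deletion of part of it. The tissue label was checked on 10 sensory neuron markers, all of them above 0 in every mouse library, with a summed level of 7019 to 10290 CPM in knockout and 4996 to 7462 CPM in flox libraries. CPM, the count scaled by library size and TMM factor, compares libraries and not genes of different length; TPM also divides by transcript length.

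Of the 45 members, 9 rose in knockout ganglia and 0 fell, at an adjusted p under 0.05 in edgeR's quasi-likelihood test with batch in the model. Over all 15654 genes tested, 7.97% rose and 7.51% fell. Without Racgap1 and Tk1, which the rule names, 7 of 43 members rose and 0 fell. Racgap1, a subunit of the centralspindlin complex that places the cleavage furrow, was 8.17-fold higher in knockout than in flox ganglia. Tk1, the thymidine kinase that salvages thymidine for DNA synthesis, was 3.66-fold higher. The other members that rose were 5 genes of mitosis (Aurka, Ccnb1, Kif11, Bub1 and Nusap1), Ect2 of cytokinesis and Ccne2 of the G1/S drivers, by 1.72-fold to 3.96-fold. A sample of whole ganglia cannot tell more cells of a dividing type from more RNA per cell.

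By role, the members lay as follows. All 21 mitosis members had a log2 fold change above 0, from 0.19 to 1.99 with a median of 0.85, and 5 of them were called. The 12 S phase members had a median of 0.11, and only Tk1 was called; the other 11 lay between -0.14 and 0.65. Of the 4 G1/S drivers 1 was called (median 0.050), and of the 2 CDK inhibitors 0 were called (median 0.045). Of these 2 inhibitors 0 had an unadjusted p under 0.05, against 30.9% of all genes, and 2 genes are too few to compare. Of the 6 cytokinesis members 2 were called; their median was 0.64, and 0.58 without Racgap1. The median of all genes tested was -0.0078, and 49.2% of them had a log2 fold change above 0, against 38 of 45 members. Differences between roles were not tested.

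**Figure D1:**
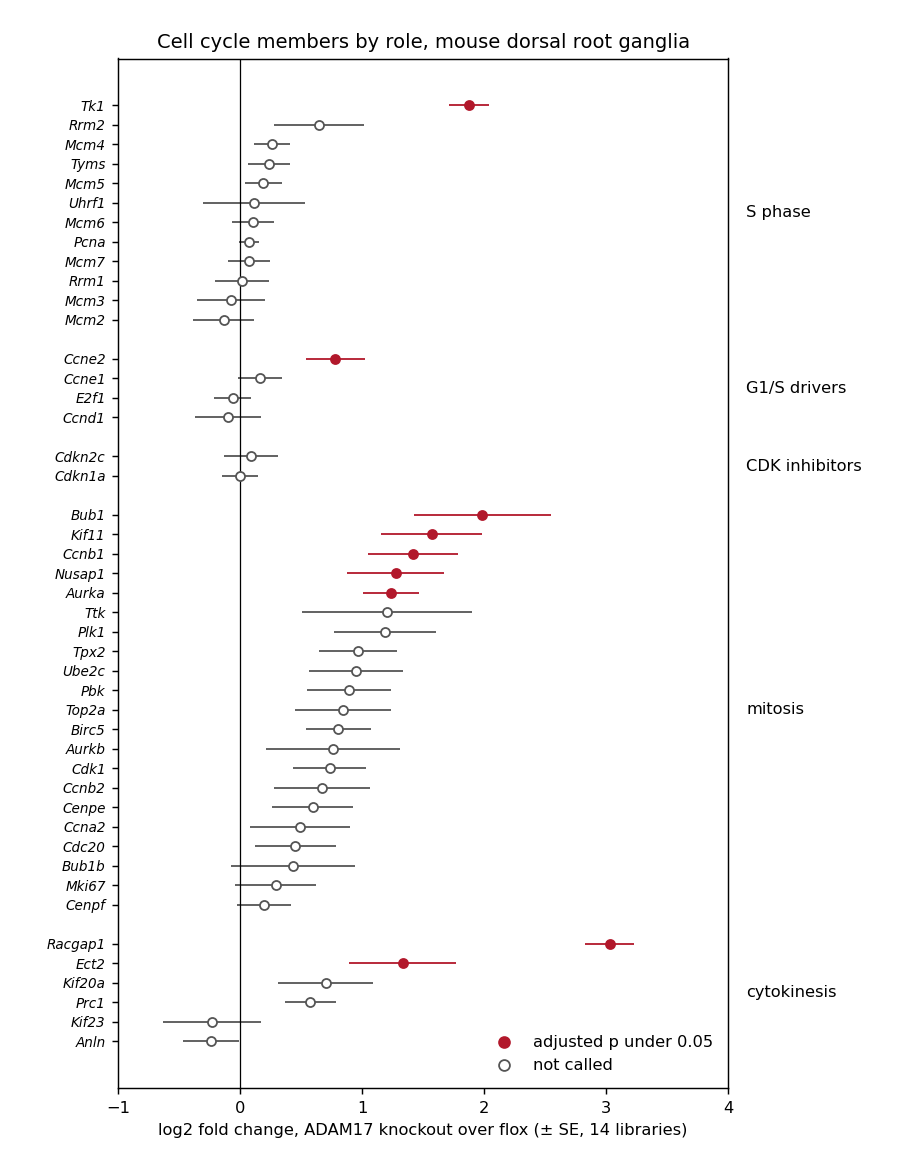
Log2 fold change of each of the 45 members in knockout over flox ganglia (x axis, points with SE, 14 libraries, batch in the model), grouped by role down the page; filled points have an adjusted p under 0.05. Racgap1 at 3.03 and Tk1 at 1.87 are the highest points of their roles, while all 21 mitosis members lie to the right of 0.

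The CHR element and CCAAT boxes are known from promoters of mitosis genes, and E2F sites from promoters of S phase genes. Promoters of the members were therefore read from RefSeq (GRCm38.p6), as windows of 300 bases from 250 before to 50 after each gene start. Of the 45 members 37 matched, with 43 windows, since some genes have several starts. Ccne2, Ccnd1, Ccna2, Mcm4, Aurkb, Tpx2, Pbk and Kif20a are named only. Stretches of 120 bases, 100 before the outermost start in RefSeq or GENCODE and 20 after it, are shown for Racgap1 and the 5 called genes of mitosis, for Mcm6 as an S phase member that did not rise, and for Tk1. Each reads 5′ to 3′ on the gene's strand, and capitals mark the motifs searched.
Racgap1 (chr15:99651637-99651756, minus strand): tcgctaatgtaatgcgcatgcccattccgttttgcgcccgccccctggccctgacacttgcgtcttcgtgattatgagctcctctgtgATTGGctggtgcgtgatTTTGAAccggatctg
Kif11 (chr19:37376282-37376401, plus strand): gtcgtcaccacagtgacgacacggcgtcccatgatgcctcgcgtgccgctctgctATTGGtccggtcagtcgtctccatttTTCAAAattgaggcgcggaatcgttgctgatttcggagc
Bub1 (chr2:127831846-127831965, minus strand): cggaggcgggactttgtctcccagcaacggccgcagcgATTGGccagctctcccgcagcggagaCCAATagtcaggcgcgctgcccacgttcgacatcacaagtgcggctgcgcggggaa
Aurka (chr2:172370551-172370670, minus strand): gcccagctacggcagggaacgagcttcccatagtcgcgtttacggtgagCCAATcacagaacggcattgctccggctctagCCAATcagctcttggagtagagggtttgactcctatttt
Ccnb1 (chr13:100786551-100786670, minus strand): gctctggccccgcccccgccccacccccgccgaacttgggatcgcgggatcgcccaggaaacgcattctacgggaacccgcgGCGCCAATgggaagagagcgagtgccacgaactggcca
Nusap1 (chr2:119618198-119618317, plus strand): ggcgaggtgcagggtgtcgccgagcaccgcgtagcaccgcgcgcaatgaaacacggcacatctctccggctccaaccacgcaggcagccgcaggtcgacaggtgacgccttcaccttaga
Mcm6 (chr1:128359686-128359805, minus strand): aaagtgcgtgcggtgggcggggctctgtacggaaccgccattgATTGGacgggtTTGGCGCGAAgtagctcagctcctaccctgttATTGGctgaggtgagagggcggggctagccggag
Tk1 (chr11:117826073-117826192, minus strand): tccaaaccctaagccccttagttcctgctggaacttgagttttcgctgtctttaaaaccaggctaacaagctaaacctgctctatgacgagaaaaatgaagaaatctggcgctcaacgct

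The CHR was searched as TTTGAA and also as TTCGAA, and the CCAAT box by its 5 letters. The E2F core was searched as TTCCCGC, likewise as TTCGCGC, then as TTGCCGC and finally as TTGGCGC. Both strands were read, and E2F and CCAAT matches can overlap. In the stretches shown, Racgap1 and Kif11 hold a CHR and a CCAAT box, and Bub1 and Aurka hold a pair of CCAAT boxes each, with a CHR match after the stretch, within the window. Ccnb1 holds an overlapping CCAAT box and E2F core and has no CHR match in its window, and Nusap1 has no match to any of the 3 motifs in its window. Mcm6 holds 2 CCAAT boxes and overlapping E2F cores, and the Tk1 stretch holds none of these letters. A CHR lay in 83.3% of the 24 mitosis and cytokinesis windows, in 13.3% of the 15 S phase and G1/S windows, and in 19.2% of all 32851 promoter windows. E2F cores lay in 20.8%, 60% and 9.57% of the same sets, and CCAAT boxes in 87.5%, 73.3% and 37.4%. A match is a run of letters and not a binding site.

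Racgap1 recruits Ect2 and pairs with the motor Kif23 at the central spindle. In batch 1 it had 54.7, 55.4, 64.4 and 38.6 CPM in knockout libraries, against 8.18, 4.154 and 7.57 CPM in flox libraries. In batch 2 it had 50.2, 26.2 and 39.5 CPM in knockout libraries, against 3.62, 6.18, 4.13 and 4.61 CPM in flox libraries. The lowest knockout library stood above the highest flox library by a wide margin in both batches. The log2 fold change was 3.03 ± 0.20 (SE, adjusted p = 1.08e-07), with 2.98 ± 0.28 in batch 1 (adjusted p = 0.00185) and 3.06 ± 0.27 in batch 2 (adjusted p = 0.000200). Per transcript length it reached 9.69 to 28.1 TPM in knockout libraries and 1.20 to 3.15 TPM in flox libraries. TPM totals differ between the mouse libraries, so these ranges give its level and do not measure the genotype difference. The gene lies at chr15:99620496-99651656 (GRCm38, GENCODE M21, minus strand) and shares no exon bases with another annotated gene.

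The partners of Racgap1 had smaller log2 fold changes. Ect2, the exchange factor that activates RhoA at the cell equator, had 3.52, 3.33, 4.22 and 2.46 CPM in batch 1 knockout libraries, against 1.81, 2.35 and 1.18 CPM in flox libraries. In batch 2 Ect2 had 5.22, 7.499 and 1.61 CPM in knockout libraries, against 2.37, 1.09, 2.06 and 0.218 CPM in flox libraries. The groups were apart in batch 1 and overlapped in batch 2, and the log2 fold change was 1.33 ± 0.44 (adjusted p = 0.0495). The call of Ect2 was lost without any 1 of 11 of the 14 libraries, with an adjusted p of up to 0.127. Kif23, the other centralspindlin subunit, had 0.267 to 4.09 CPM in knockout and 1.90 to 3.48 CPM in flox libraries, and its log2 fold change was -0.23 ± 0.40 (adjusted p = 0.738). Prc1, which bundles midzone microtubules, had 8.73, 5.13, 8.45 and 8.57 CPM in batch 1 knockout libraries, against 5.03, 4.38 and 5.97 CPM in flox libraries. In batch 2 Prc1 had 14.6, 6.70 and 9.43 CPM in knockout libraries, against 5.32, 8.68, 8.22 and 5.48 CPM in flox libraries. Prc1 groups overlapped in both batches (0.58 ± 0.21, adjusted p = 0.0715). The furrow protein Anln (-0.24 ± 0.23, adjusted p = 0.517) and the motor Kif20a (0.70 ± 0.39, adjusted p = 0.234) were not called either. Whether Racgap1 differs from its partners was not tested.

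Tk1 showed the same separation at a lower level. It had 14.3, 9.55, 13.9 and 15.2 CPM in batch 1 knockout libraries, against 3.04, 4.54 and 4.23 CPM in flox libraries. In batch 2 it had 20.02, 14.5 and 17.2 CPM in knockout libraries, against 5.01, 3.74, 4.13 and 4.36 CPM in flox libraries. No knockout library came near the flox range. The log2 fold change was 1.87 ± 0.16 (adjusted p = 2.40e-06), with 1.71 ± 0.26 in batch 1 and 2.01 ± 0.22 in batch 2 (adjusted p = 0.0172 and 0.000591). Tk1 lies at chr11:117815526-117826092 (minus strand), and its exons overlap those of Afmid on the other strand. The labels do not say whether the libraries kept strand, so reads of the shared bases cannot be told apart. Afmid had 4.68 to 12.9 CPM in knockout and 2.38 to 9.06 CPM in flox libraries and rose by 0.80 ± 0.20 (adjusted p = 0.0133).

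**Figure D2:**
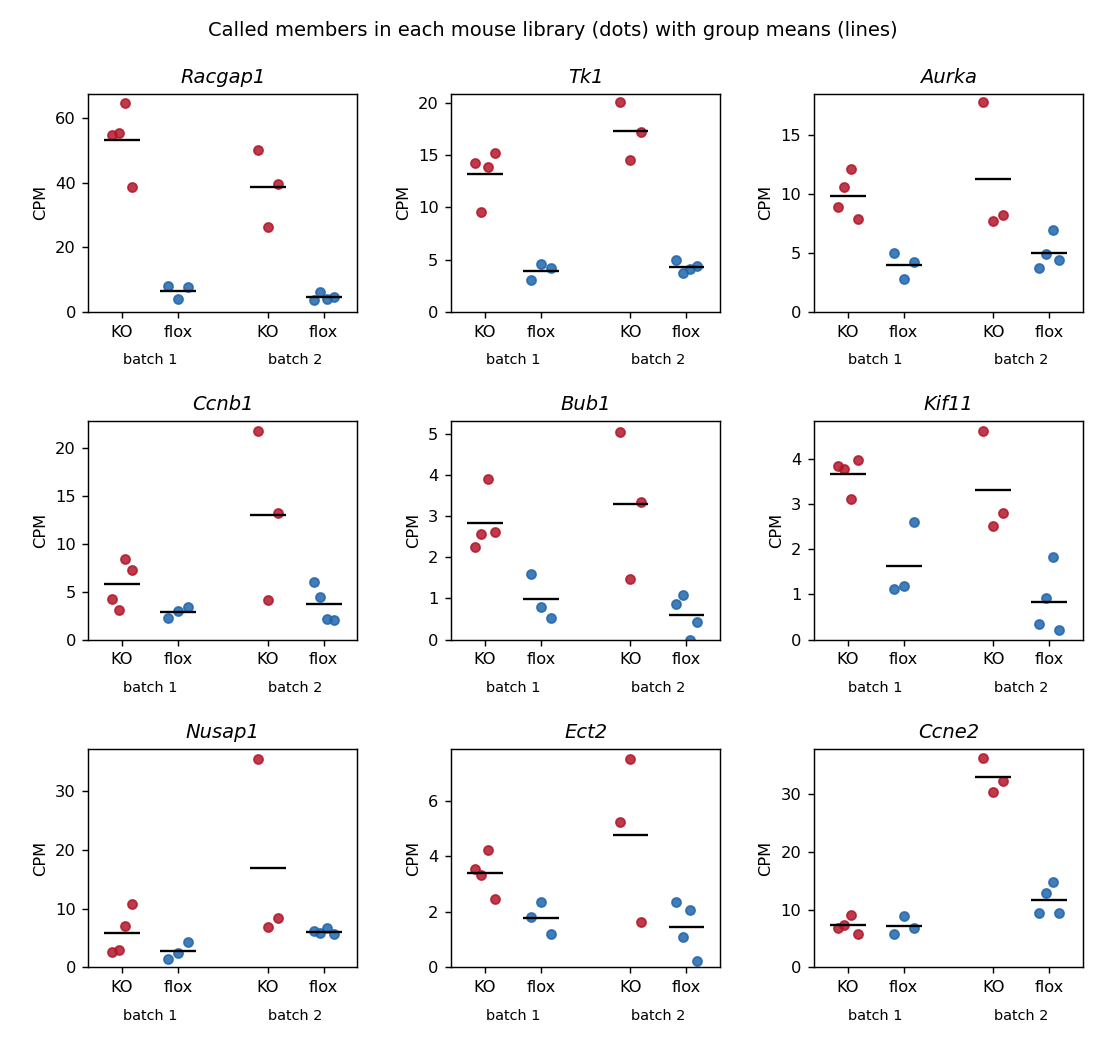
CPM of the 9 called members (y axes, each from 0) in every mouse library (dots) with group means (lines), knockout left of flox within batch 1 and batch 2. Racgap1 and Tk1 are apart in both batches; the highest batch 2 dot of Aurka (17.7), Ccnb1 (21.8) and Nusap1 (35.5) is 1 knockout library, number 5.

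The remaining S phase members supply nucleotides, form the replicative helicase or the sliding clamp, or help to copy methylation marks. Pcna, the clamp, had 44.5, 47.0, 55.1 and 56.9 CPM in batch 1 knockout libraries, against 49.6, 51.9 and 48.5 CPM in flox libraries. In batch 2 Pcna had 69.9, 69.0 and 69.3 CPM in knockout libraries, against 66.8, 60.6, 63.5 and 64.5 CPM in flox libraries. Pcna groups overlapped in batch 1 and were apart by a small step in batch 2. Its log2 fold change of 0.073 ± 0.082 was not called (adjusted p = 0.581), and it was -0.0061 in batch 1 alone. Tyms, which makes thymidylate by the route that Tk1 bypasses, had 8.04, 5.77, 7.99 and 9.05 CPM in batch 1 knockout libraries, against 6.38, 8.64 and 9.18 CPM in flox libraries. In batch 2 Tyms had 25.6, 19.0 and 29.4 CPM in knockout libraries, against 14.6, 15.7, 23.0 and 15.5 CPM in flox libraries. Both batches overlapped (0.23 ± 0.17, adjusted p = 0.383). The 6 helicase subunits Mcm2 to Mcm7 lay between -0.14 and 0.26, with adjusted p between 0.248 and 0.878. Rrm2, the regulated subunit of ribonucleotide reductase, reached 66.9 CPM in knockout library 5 and 4.17 to 20.1 CPM in the other 13 libraries (0.65 ± 0.37, adjusted p = 0.253). Its partner Rrm1 (0.011 ± 0.22) and Uhrf1, which recruits the maintenance methylase (0.11 ± 0.42), were not called.

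Ccne2, a cyclin E that activates Cdk2 before S phase, rose in 1 batch only. In batch 1 it had 6.78, 7.31, 9.11 and 5.71 CPM in knockout libraries, against 5.81, 8.81 and 6.82 CPM in flox libraries, which overlap fully. In batch 2 it had 36.3, 30.3 and 32.4 CPM in knockout libraries, against 9.36, 12.9, 14.7 and 9.46 CPM in flox libraries, which are far apart. The log2 fold change was -0.016 ± 0.26 in batch 1 (adjusted p = 0.983) and 1.51 ± 0.21 in batch 2 (adjusted p = 0.00187), and the fit of both gave 0.78 ± 0.24 (adjusted p = 0.0395). The interaction of batch and genotype was 1.49 ± 0.31 (adjusted p = 0.0313), the only 1 of 45 members called there, against 1.03% of all genes (0.658% in this direction). The interaction was called in 9 of 22 alternatives, with adjusted p between 0.00125 and 0.196. Ccne2 exons overlap those of Ints8 on the other strand, which had a log2 fold change of 0.23 ± 0.15 (adjusted p = 0.299).

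The other G1/S drivers and the inhibitors gave no call. Ccnd1, the D cyclin that opens G1, had 16.8, 10.2, 14.1 and 37.1 CPM in batch 1 knockout libraries, against 10.7, 32.8 and 20.6 CPM in flox libraries. In batch 2 Ccnd1 had 19.7, 24.9 and 15.1 CPM in knockout libraries, against 22.0, 18.5, 21.7 and 21.4 CPM in flox libraries. Neither batch was apart (-0.099 ± 0.27, adjusted p = 0.833), and the sign turned without knockout library 2 or flox library 2 (up to 0.099). Ccne1 (0.16 ± 0.18) and E2f1, the transcription factor of S phase genes (-0.063 ± 0.15), were not called. Cdkn1a, the p21 inhibitor, had 74.1, 61.3, 71.2 and 110 CPM in batch 1 knockout libraries, against 99.3, 79.0 and 57.0 CPM in flox libraries. In batch 2 Cdkn1a had 59.0, 63.1 and 71.4 CPM in knockout libraries, against 67.8, 50.6, 65.0 and 77.3 CPM in flox libraries. Its log2 fold change was -0.0017 ± 0.15 (adjusted p = 0.996), and the sign turned under 13 of 28 alternatives, none of them called. Cdkn2c, the p18 inhibitor of Cdk4 and Cdk6, had 8.98, 8.59, 7.72 and 14.1 CPM in batch 1 knockout libraries, against 5.65, 11.03 and 8.79 CPM in flox libraries. In batch 2 Cdkn2c had 6.03, 9.74 and 15.1 CPM in knockout libraries, against 9.67, 8.77, 10.7 and 12.9 CPM in flox libraries. The ranges overlapped in both batches (0.091 ± 0.22, adjusted p = 0.814).

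Among the mitosis members, Aurka, Kif11 and Bub1 had every knockout library above every flox library in both batches. With Racgap1 and Tk1, which the rule names, that made 5 of 45 members, against 3.25% of all genes. Lying the other way were 0 members, against 2.25%. The members were chosen with earlier results of these data known, so these shares are not an independent test. Aurka, the kinase that matures centrosomes and spindle poles, had 8.86, 10.6, 12.1 and 7.86 CPM in batch 1 knockout libraries, against 4.98, 2.83 and 4.23 CPM in flox libraries. In batch 2 Aurka had 17.7, 7.69 and 8.24 CPM in knockout libraries, against 3.69, 4.88, 6.93 and 4.36 CPM in flox libraries. Its log2 fold change was 1.23 ± 0.23 (adjusted p = 0.00231), and neither batch alone called it (adjusted p = 0.0562 and 0.0529).

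Kif11, the motor that pushes spindle poles apart, had 3.83, 3.78, 3.103 and 3.97 CPM in batch 1 knockout libraries, against 1.12, 1.19 and 2.601 CPM in flox libraries. In batch 2 Kif11 had 4.61, 2.51 and 2.80 CPM in knockout libraries, against 0.348, 0.912, 1.84 and 0.218 CPM in flox libraries. These levels rest on 47 to 114 counts in knockout and 7 to 145 counts in flox libraries (1.57 ± 0.42, adjusted p = 0.0186). Bub1, a kinase of the spindle checkpoint, had 2.26, 2.56, 3.90 and 2.62 CPM in batch 1 knockout libraries, against 1.61, 0.801 and 0.520 CPM in flox libraries. In batch 2 Bub1 had 5.06, 1.49 and 3.35 CPM in knockout libraries, against 0.870, 1.09, 0 and 0.436 CPM in flox libraries. Bub1 was apart in both batches on 33 to 125 counts in knockout and 0 to 93 counts in flox libraries (1.99 ± 0.56, adjusted p = 0.0254), and lost its call without knockout library 5, flox library 3 or flox library 7.

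Ccnb1, the B cyclin that brings Cdk1 into mitosis, had 4.27, 3.08, 8.38 and 7.30 CPM in batch 1 knockout libraries, against 2.26, 2.94 and 3.37 CPM in flox libraries. In batch 2 Ccnb1 had 21.8, 4.11 and 13.2 CPM in knockout libraries, against 6.05, 4.44, 2.19 and 2.08 CPM in flox libraries. The ranges overlapped in both batches, and the log2 fold change was 1.42 ± 0.37 (adjusted p = 0.0167). Nusap1, a protein that bundles spindle microtubules, had 2.58, 3.01, 7.00 and 10.7 CPM in batch 1 knockout libraries, against 1.47, 2.50 and 4.36 CPM in flox libraries. In batch 2 Nusap1 had 35.5, 6.89 and 8.32 CPM in knockout libraries, against 6.12, 5.86, 6.71 and 5.60 CPM in flox libraries. The batch 1 ranges overlapped, and in batch 2 the lowest knockout library (6.89 CPM) was barely above the highest flox library (6.71 CPM) (1.27 ± 0.40, adjusted p = 0.0403). Its exons overlap those of Oip5 on the other strand, whose log2 fold change was -0.024 ± 0.25 (adjusted p = 0.959).

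The usual markers of cycling cells were not called. Mki67, the Ki-67 antigen of cycling cells, had 5.40, 5.00, 11.9 and 10.3 CPM in batch 1 knockout libraries, against 3.35, 5.92 and 10.9 CPM in flox libraries. In batch 2 Mki67 had 6.63, 2.13 and 2.29 CPM in knockout libraries, against 2.33, 2.27, 2.90 and 4.48 CPM in flox libraries. The groups overlapped in both batches (0.29 ± 0.33, adjusted p = 0.593). Top2a, the topoisomerase that untangles sister chromatids, had 7.41, 7.63, 12.2 and 14.4 CPM in batch 1 knockout libraries, against 4.51, 6.43 and 6.49 CPM in flox libraries. In batch 2 Top2a had 16.9, 4.19 and 5.35 CPM in knockout libraries, against 6.75, 1.65, 9.22 and 1.96 CPM in flox libraries. Top2a was apart in batch 1 and overlapped in batch 2 (0.85 ± 0.39, adjusted p = 0.156). Ube2c, which feeds the anaphase-promoting complex, had 4.33, 5.00, 7.59 and 17.1 CPM in batch 1 knockout libraries, against 2.75, 5.46 and 6.64 CPM in flox libraries. In batch 2 Ube2c had 14.4, 4.34 and 6.58 CPM in knockout libraries, against 4.24, 1.62, 6.87 and 2.74 CPM in flox libraries, again with overlap (0.95 ± 0.39, adjusted p = 0.107). Ube2c exons overlap those of Tnnc2 on the other strand, and the labels do not say whether the libraries kept strand. The spindle factor Tpx2 and survivin (Birc5) stood just outside the threshold, with adjusted p of 0.05003 and 0.0521. The mean over the 7 libraries was under 1 TPM for 7 of 45 members in knockout and for 12 in flox ganglia. TPM totals differ between the mouse libraries, so these counts do not compare the genotypes.

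Knockout library 5 had the highest levels of most mitosis members. It was the highest batch 2 library in 31 of 45 members (68.9%), against 19% of all genes tested. Set against the mean of knockout libraries 6 and 7, its level was 2.52-fold as the median of the mitosis members and 1.22-fold as that of the S phase members, against 0.991-fold over all genes. Nusap1 was 4.67-fold higher there, Top2a 3.55-fold, Mki67 3.00-fold and Ccnb1 2.52-fold, whereas Racgap1 was 1.53-fold and Tk1 1.26-fold higher. The summed CPM of the 21 mitosis members was 240.8 in knockout library 5 and 76.0 to 129.4 in the other 6 knockout libraries, against 43.6 to 85.7 in flox libraries.

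Without knockout library 5, only Racgap1 (2.93 ± 0.20, adjusted p = 4.85e-07), Tk1 (1.81 ± 0.17, adjusted p = 1.46e-05) and Aurka (1.03 ± 0.23, adjusted p = 0.0104) were called. That was 3 of 45 members, beside 1587 of 15825 genes called in the same fit, so calls fell over all genes too. Kif11 (1.39, adjusted p = 0.0537), Ccnb1 (1.11, adjusted p = 0.0587) and Bub1 (1.74, adjusted p = 0.0725) kept their direction. Ccne2 (0.67, adjusted p = 0.0939), Ect2 (1.26, adjusted p = 0.102) and Nusap1 (0.74, adjusted p = 0.205) did so too, while Mki67 turned to -0.017. Besides library 5, Ccne2 also lost its call without knockout library 3, 6 or 7 or any of flox libraries 3 to 7, and Nusap1 without knockout library 3 or 4 or any flox library except number 3. Without flox library 7, 5 of 45 members were called, beside 1764 of 15822 genes. Racgap1 and Tk1 were called in all 28 alternatives, with log2 fold changes of 2.53 to 3.15 for Racgap1 and 1.66 to 2.01 for Tk1.

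**Figure D3:**
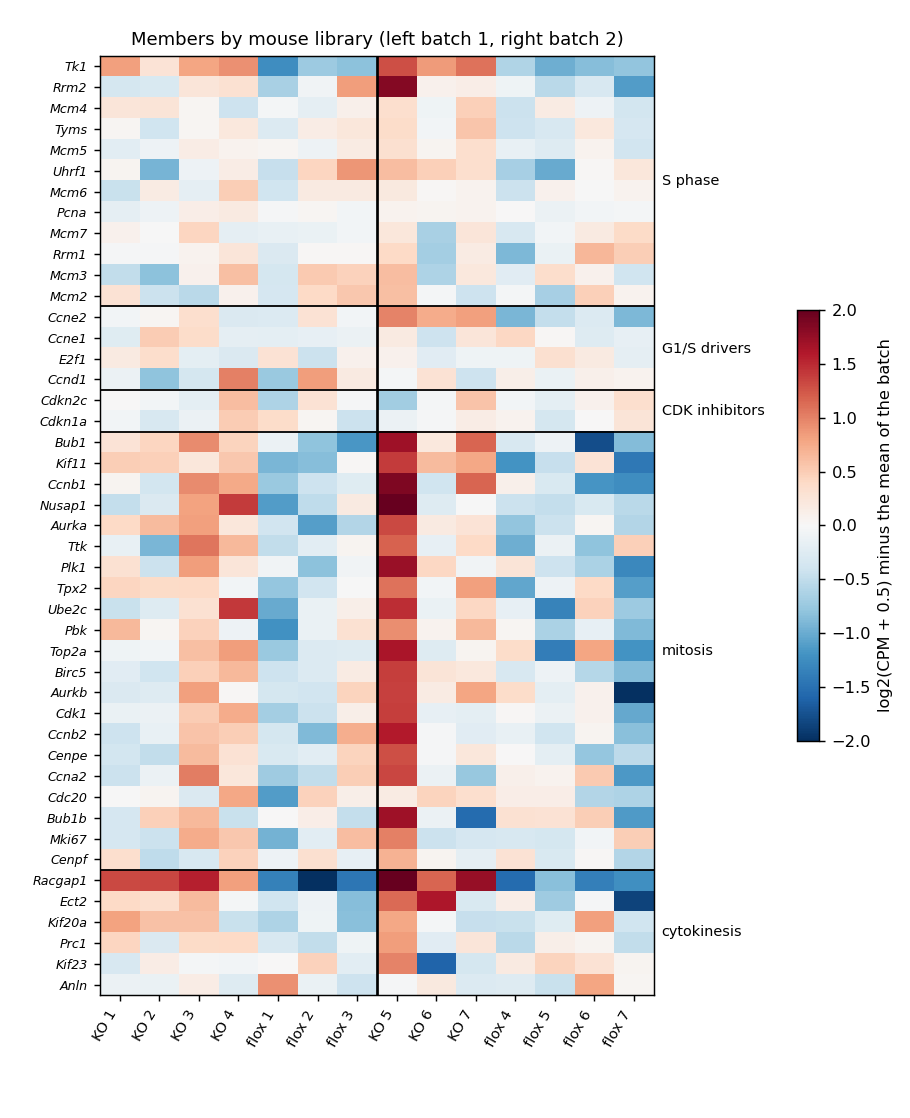
Each member (rows, by role) in each mouse library (columns, knockout left of flox within batch 1 and then batch 2), as log2(CPM + 0.5) minus the mean of the batch. The column of knockout library 5 is highest of batch 2 in 31 of 45 rows; in the Racgap1 and Tk1 rows every knockout library is above the flox libraries.

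Fitted alone, batch 1 called Racgap1 and Tk1, both higher (2 of 45), against 1.8% of all genes called and 1.12% called higher. Of the members, 31 had a log2 fold change above 0 there, against 49.4% of all genes. Batch 2 called Racgap1, Tk1, Ccne2, Ccnb1 and Birc5, all higher (5 of 45), against 13.2% of all genes called, 7.22% called higher and 5.99% called lower. There 37 members were above 0, against 48.6% of all genes, and 17 had an unadjusted p under 0.05, against 29.2%. The median log2 fold change of the mitosis members was 0.64 in batch 1 and 1.13 in batch 2, and that of the 11 S phase members other than Tk1 was -0.093 and 0.19. The interaction was called for 0 of the 21 mitosis members and 0 of the 12 S phase members, against 1.03% of all genes. Its value (batch 2 minus batch 1) was above 0 for 35 of 45 members, against 47.5% of all genes. It was above 0 for 20 of the 21 mitosis members (median 0.41) and 10 of the 12 S phase members (median 0.41).

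**Figure D4:**
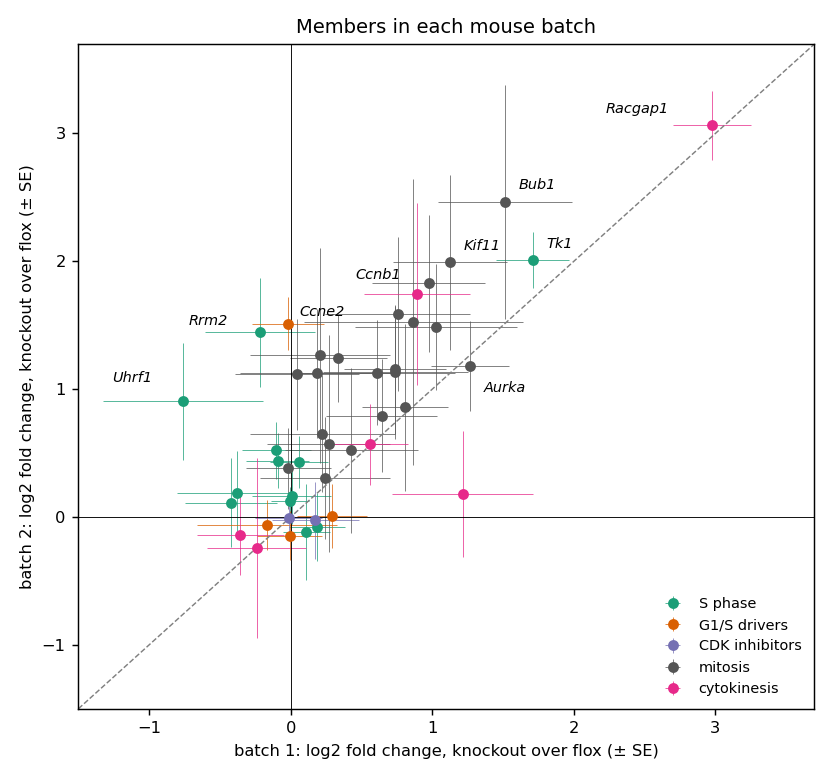
Log2 fold change of each member in knockout over flox ganglia in batch 1 (x axis) and batch 2 (y axis), with SE bars and the line of equal change (dashed), coloured by role. Racgap1 (2.98 and 3.06), Tk1 (1.71 and 2.01) and Aurka (1.27 and 1.18) lie near the line, and Ccne2 (-0.016 and 1.51) lies far above it.

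Markers of other cells moved with the genotype, in a comparison where 7.97% of all genes tested rose and 7.51% fell. Of 8 neutrophil precursor markers 7 rose and 1 (Ms4a3) fell, and their summed level was 415.1 to 1724 CPM in knockout and 54.1 to 260.5 CPM in flox libraries. The defining granule genes Elane and Mpo were above 0 in every library. Of 6 mature neutrophil markers 4 rose, with sums in batch 1 of 1045 to 3595 CPM in knockout and 148.9 to 428.2 CPM in flox libraries. In batch 2 these sums were 312.5 to 597.4 CPM in knockout and 39.3 to 77.4 CPM in flox libraries, so neither batch overlapped. Of 7 erythroid precursor markers 0 were called, but their sum reached 31850 CPM in knockout library 4, against 455.1 to 8197 CPM in the other 13 libraries. Of 6 fibroblast markers 5 fell and of 7 Schwann and myelin markers 6 fell, while 4 of 10 sensory neuron markers rose. Of 5 T and NK cell markers tested 2 rose and 0 fell, with sums of 5.72 to 12.4 CPM in knockout and 2.18 to 5.70 CPM in flox libraries. Of 6 satellite glia markers 2 rose and 1 fell, with sums in batch 2 of 1361 to 2512 CPM in knockout and 917.4 to 1292 CPM in flox libraries, which do not overlap, and in batch 1 of 688.8 to 1151 CPM in knockout and 789.9 to 1047 CPM in flox libraries, which do. Of 6 B and plasma cell markers tested 1 rose and 2 fell, and 0 of the 7 macrophage, 5 endothelial and 5 skeletal muscle markers were called.

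Knockout library 5 also stood apart from knockout libraries 6 and 7 in some of these sums. Its fibroblast sum was 1493 CPM, beside 3311 and 3373 CPM. Its macrophage sum was 163.5 CPM, beside 293.7 and 338.5 CPM, and its satellite glia sum was 1361 CPM, beside 2051 and 2512 CPM. Library 5 was the lowest of the 3 in each of these lists. Its neutrophil precursor sum was 739.7 CPM, beside 446.4 and 661.0 CPM. The part of all these cell types in the member results was not tested.

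Other genes of the same pathways, from lists that hold no member, gave the following counts. Of 36 DNA replication genes 1 rose, Slbp, the histone mRNA binder (0.34 ± 0.097, adjusted p = 0.0278), and 0 fell, with a median of 0.11. Of 56 mitosis and cytokinesis genes tested 7 rose and 0 fell, with a median of 0.62, and 47 of them had a log2 fold change above 0. Among all genes tested, 7.97% rose, 7.51% fell and 49.2% had a log2 fold change above 0. The lowest p-values belonged to the chromosome motor Kif22 (1.98 ± 0.23, adjusted p = 4.61e-05) and the Cdk subunit Cks2 (0.80 ± 0.14, adjusted p = 0.00138). The checkpoint protein Mad2l1 (0.70 ± 0.14, adjusted p = 0.00329) and the spindle protein Tacc3 (0.83 ± 0.23, adjusted p = 0.0223) followed. Slbp lost its call without any 1 of 7 libraries (knockout 5, 6 or 7, or flox 3, 5, 6 or 7), with 0.33 and an adjusted p of 0.0572 without knockout library 5. Tacc3 lost its call without knockout library 5 (0.67, adjusted p = 0.0813), while Kif22, Cks2 and Mad2l1 were called without it.

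Of 23 G1 regulators tested 4 rose and 2 fell. The inhibitor Cdkn2d (0.51 ± 0.097, adjusted p = 0.00254) and Mycn (0.91 ± 0.20, adjusted p = 0.00726) rose. Cdkn2b (-1.21 ± 0.24, adjusted p = 0.00312), another inhibitor of the same family, and its target kinase Cdk4 (-0.34 ± 0.097, adjusted p = 0.0258) fell. Of 12 p53 target genes Gadd45a rose (0.84 ± 0.11, adjusted p = 9.69e-05) and Bax fell (-0.35 ± 0.098, adjusted p = 0.0236). Without knockout library 5 neither Cdk4 (-0.32, adjusted p = 0.0603) nor Bax (-0.31, adjusted p = 0.0637) was called, and Gadd45a, Cdkn2d, Cdkn2b and Mycn were. Cdk4 also lost its call without flox library 2 or 3, and Bax without flox library 2. Over all genes 15.5% were called, 7.97% higher and 7.51% lower.

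In monkey ganglia, 43 of the 45 members could be tested; BUB1B and TTK had too few counts. After SADBE 0 members were called and 0 had an unadjusted p under 0.05, by edgeR's quasi-likelihood test. Over all 17988 genes 0% were called, 3.06% had an unadjusted p under 0.05, and DESeq2 called 27 genes, of which 0 were members. The members' median log2 fold change was -0.40, with 34 of 43 below 0, beside -0.0077 over all genes, of which 49.5% were above 0. By role the median was -0.69 for the 19 mitosis members tested, -0.44 for the 12 S phase members and -0.061 for the 6 cytokinesis members.

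The 2 members with the lowest p in mice overlapped between the monkey groups. RACGAP1 had 1.32, 2.70 and 4.94 CPM in SADBE libraries, against 4.76, 4.72 and 4.55 CPM in vehicle libraries (-0.64 ± 0.61, adjusted p = 0.999). TK1 had 0.440, 1.01 and 1.52 CPM in SADBE libraries, against 2.32, 0.302 and 0.787 CPM in vehicle libraries (-0.22 ± 0.91, adjusted p = 0.999). The log2 fold change of TK1 was 0.88 without vehicle library 1. Groups without overlap were found for AURKA, CCNB1 and UBE2C, which were lower after SADBE (3 of 43, against 4.56% of all genes), and for PRC1, which was higher (1 of 43, against 4.63%).

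AURKA had 5.58, 5.39 and 4.84 CPM in SADBE libraries, against 8.43, 8.19 and 9.53 CPM in vehicle libraries (-0.73 ± 0.45). CCNB1 had 12.8, 14.04 and 14.2 CPM in SADBE libraries, against 16.7, 16.8 and 18.9 CPM in vehicle libraries (-0.35 ± 0.39). UBE2C had 0.782, 2.02 and 1.79 CPM in SADBE libraries, against 3.82, 2.49 and 3.85 CPM in vehicle libraries (-1.15 ± 0.63). The SADBE libraries lay under the vehicle libraries in these 3 genes. PRC1 had 17.0, 24.5 and 14.3 CPM in SADBE libraries, against 9.22, 13.8 and 9.70 CPM in vehicle libraries (0.77 ± 0.44). All 4 had an adjusted p of 0.999 in edgeR, so none was called.

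Vehicle library 1 was the highest library in 17 of 43 members (39.5%), against 23% of all genes, and vehicle library 3 in 13 (30.2%), against 18.7% of all genes. MKI67 had 5.62, 16.1 and 7.61 CPM in SADBE libraries, against 36.1, 4.12 and 6.73 CPM in vehicle libraries. TOP2A had 0.0978, 4.16 and 0.706 CPM in SADBE libraries, against 8.31, 0.642 and 1.57 CPM in vehicle libraries. TYMS had 0.0978, 1.46 and 1.20 CPM in SADBE libraries, against 6.64, 0.831 and 3.85 CPM in vehicle libraries (-2.07 ± 1.06). In each of these genes vehicle library 1 alone was the highest. Without it, the log2 fold change was 0.84 for MKI67 (-0.69 with it) and 0.54 for TOP2A (-1.15 with it), with 0 members called. The same library had the highest sums of neutrophil precursor markers (830.4 CPM, against 3.55 to 191.3 CPM in the other 5) and of erythroid precursor markers (113.8 CPM, against 0 to 11.8 CPM). Its mature neutrophil sum (477.7 CPM, against 12.5 to 65.8 CPM) and fibroblast sum (4127 CPM, against 669.3 to 2886 CPM) were the highest too, and its sensory neuron sum was the lowest (1470 CPM, against 3267 to 6381 CPM). The part of such cells was not tested.

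PCNA had 39.9, 36.4 and 41.9 CPM in SADBE libraries, against 57.2, 18.8 and 46.6 CPM in vehicle libraries. CCND1 had 74.7, 60.5 and 85.8 CPM in SADBE libraries, against 48.0, 56.3 and 124 CPM in vehicle libraries. Both SADBE ranges lay inside the vehicle ranges. CDKN1A had 5.77, 19.4 and 19.3 CPM in SADBE libraries, against 11.8, 19.2 and 23.4 CPM in vehicle libraries. CDKN2C had 1.12, 4.38 and 4.94 CPM in SADBE libraries, against 16.4, 5.47 and 4.11 CPM in vehicle libraries. SADBE library 1 was lowest in both inhibitors. For the remaining members called in mice, the log2 fold changes after SADBE were -0.56 for CCNE2, -1.26 for BUB1, 0.60 for KIF11, -0.024 for NUSAP1 and 0.45 for ECT2, each with an SE of 0.69 to 1.05.

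**Figure D5:**
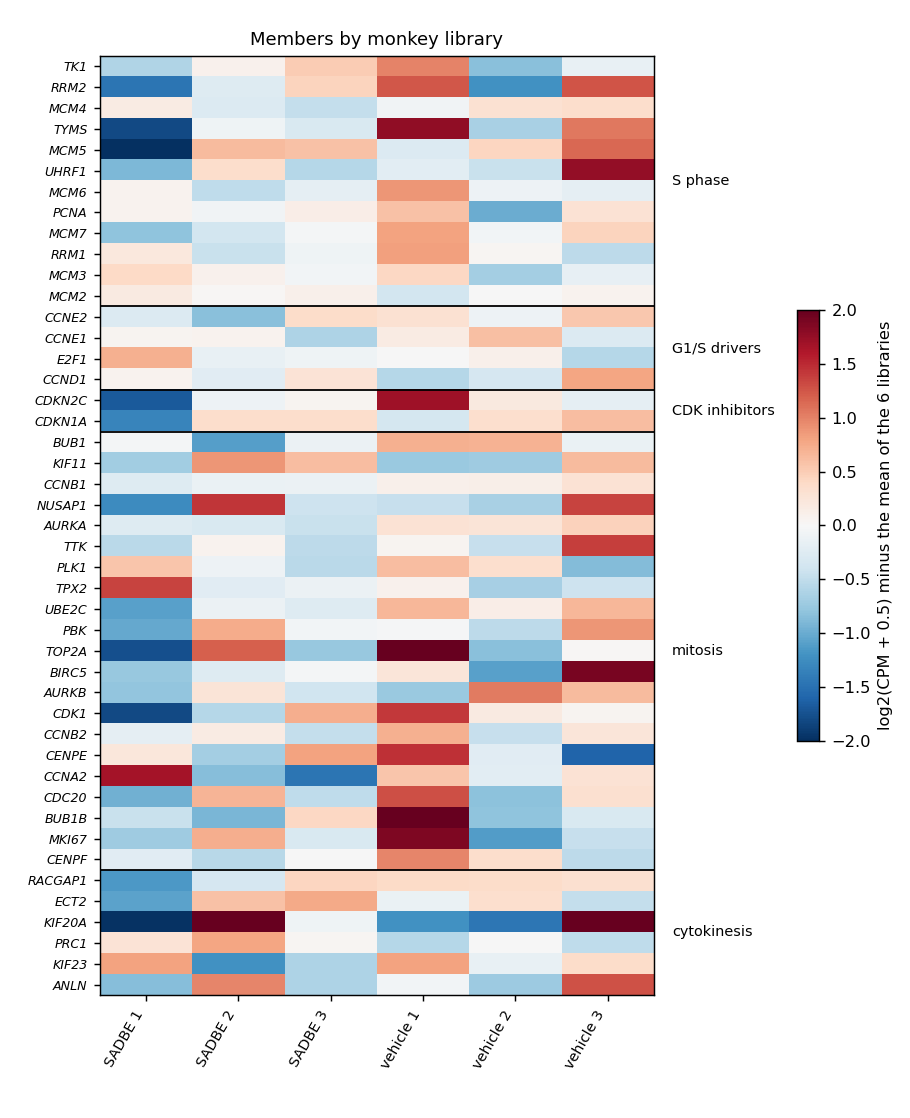
Each member (rows, by role) in each monkey library (columns, SADBE left of vehicle) as log2(CPM + 0.5) minus the mean of the 6 libraries. Vehicle library 1 is the highest in 17 of the 43 members tested, and rows such as MKI67 and TOP2A take their high value from it.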

How the data were processed

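Bulk RNA of mouse and monkey DRG was measured in 14 and 6 libraries. The authors deposited estimated counts per gene and TPM, made with kallisto; the build named is GRCm38, per the submitters' processing notes, also for the monkeys. Mouse TPM columns as deposited sum to different totals, so TPM serves only levels between genes. The row that names no gene (0.0785% to 0.187% of counts) was left out. No libraries of a group were copies (chi-square per gene at least 22.1). Nothing says that libraries are separate animals, so p-values measure spread between libraries. Counts were rounded, filtered (filterByExpr, minimum count 10, total 15) and tested with edgeR 4.0.16 (R 4.3.3; TMM, robust quasi-likelihood, batch as a term in mice), adjusted by Benjamini-Hochberg over all genes and called under 0.05. SE is the log2 fold change over the root of F. CPM uses tested genes and TMM. Scripts were tested on simulated data. Alternatives used DESeq2 1.42.0 and limma 3.58.1. Members, roles and lists were chosen with earlier results of these data known. Library values are printed for called members, Racgap1, Tk1, Mki67, Top2a, Pcna, Ccnd1, Cdkn1a and the lowest p of each role; of other lists, up to 4 called genes with the lowest p. Exon overlaps come from GENCODE M21, and promoters from RefSeq. Besides Tk1, Ccne2 and Nusap1, exons of Mcm7, Ccnd1, Cdkn1a, Top2a, Ccna2, Plk1, Cdc20, Ube2c, Kif20a and Prc1 overlap those of other annotated genes.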

Additional observations from a re-analysis of the deposited data

Results flagged for a closer look

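Within the 7 libraries of a genotype, with both batches pooled, 3 values stood apart by Dixon's test in 36 groups examined. Chance alone marks about 1 in 20 groups only where a group is 1 population of normally distributed values. Levels can differ between the batches and CPM need not be normally distributed, so that rate need not hold here. Nusap1 had 35.5 CPM in knockout library 5, where the median of the 7 knockout libraries was 7.00 CPM. Cdkn1a had 110 CPM in knockout library 4, where the median of the knockout libraries was 71.2 CPM; the same library had the highest erythroid precursor sum, whose part was not tested. Mki67 had 10.9 CPM in flox library 3, where the median of the 7 flox libraries was 3.35 CPM. The other batch 1 flox libraries had 3.35 and 5.92 CPM, and the batch 2 flox libraries 2.27 to 4.48 CPM. The Ccne2 difference between knockout and flox ganglia was larger in batch 2 than in batch 1 by 1.49 ± 0.31 on the log2 scale (edgeR interaction test, adjusted p = 0.0313), with every batch 2 knockout library above every flox library and full overlap in batch 1.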

How the results depend on the processing

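The count of called members (9) became 3 without the batch term, 2 in batch 1 alone, 5 in batch 2 alone, 3 in batch 2 without knockout library 5, and 3 to 11 without 1 library; other alternatives gave 6 to 13. Calls over all genes (2423) became 564 without the batch term, 273 in batch 1 alone and 1587 (knockout library 5 left out) to 3108 without 1 library. The interaction called 0 members with voom, with limma on log2(TPM + 1) or log2(TPM + 0.1), and without knockout libraries 6 and 7, and 0 to 1 without 1 library. It called 688 genes with DESeq2, 90 with voom, 62 and 64 with limma, 21 without knockout libraries 6 and 7 and 50 to 445 without 1 library, against 161. DESeq2 called 27 monkey genes, 0 of them members. Same-numbered libraries correlated at -0.218 to 0.269 in mice and -0.390 to 0.302 in monkeys. The labels do not say whether the numbers pair the samples, and correlations among so few libraries cannot decide it. The replicate block called 8 members, 7 shared with the 9.

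Signs turned for values that were never called there. In mice: Ccne2 to -0.016 in batch 1; Mki67 to -0.44 and Top2a to -0.042 in batch 2 without knockout library 5, and Mki67 to -0.017 without that library (-0.017 to 0.52 without 1 library); Pcna to -0.0061 in batch 1 and -0.017 on rescaled TPM; Tyms to -0.10 in batch 1. Ccnd1 spanned -0.33 to 0.099 without 1 library. Cdkn1a turned to 0.0083 with DESeq2 and with RLE scaling, 0.0010 with voom, 0.040 without the batch term, 0.042 in batch 2 without knockout library 5 and spanned -0.096 to 0.085 without 1 library. Cdkn2c turned to -0.054 with the replicate block, -0.026 in batch 2, -0.047 on rescaled TPM, -0.080 without knockout libraries 6 and 7 and spanned -0.057 to 0.23 without 1 library.

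In monkeys, TK1 turned to 0.078 on log2(TPM + 0.1) and 0.15 with the block; PCNA to 0.10 with voom, 0.12 on both TPM scales and 0.085 with the block; CCND1 to 0.065, 0.080, 0.084 and 0.073 under the same settings; and ECT2 to -0.14 with voom. Without 1 library, TK1 spanned -0.72 to 0.88, NUSAP1 -1.58 to 1.15, ECT2 -0.013 to 0.94, MKI67 -1.29 to 0.84, TOP2A -3.17 to 0.54, PCNA -0.40 to 0.26, CCND1 -0.29 to 0.47 and CDKN1A -0.55 to 0.091. The causes were not tested. Counts under 150 per library limit Bub1 and Kif11. Low counts also limit Ect2, with 31 to 197 counts in knockout and 7 to 126 counts in flox libraries. The rescaled TPM and the fit of batch 2 without knockout library 5 were chosen after seeing the data.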
